A study of Homo sapiens with 12 samples.

Results

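The genes RAB3B, DYSF, EGFR, NTM, JAG1, KRT7, BAHCC1, B3GALT2, ST6GALNAC5 and SRSF12 were examined in microglia-like cells with and without LACTB, a mitochondrial serine beta-lactamase-like protein. They were chosen from the deposited count table as genes with small p and lower levels in LACTB KO clones, and they are 10 of 62703 genes in the table and 10 of 17577 genes that passed the expression filter and were tested. All 10 passed that filter, but B3GALT2, ST6GALNAC5, SRSF12 and NTM passed it only through the control clones, in which they are higher. The difference between genotypes therefore selected them and is given below only as a description. Their change between differentiations and their relation to COL1A1 within a genotype or clone were tested. COL1A1 was itself lower on average in LACTB KO, so the choice of the genes is not independent of their relation to it.

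The cells were induced microglia-like cells (iMGLs) made from WTC11, a widely used line of human induced pluripotent stem cells that was edited with CRISPR to give 3 isogenic control clones (WT; J, K, L) and 3 knockout clones (LACTB KO; A, B, C). Each line is a single clone, and each clone was taken through 2 separate differentiations, so that 12 libraries, 6 per genotype, were sequenced from polyA RNA. In every group, hematopoietic precursors were grown to iMGLs with IL34, TGFb and MCSF, then CX3CL1 and CD200 were added from day 24 and cells were collected at day 27 without further treatment. A library is named by its clone and differentiation (J1 is WT clone J, differentiation 1).

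The genes have separate textbook roles. JAG1 is a membrane ligand of Notch receptors, and EGFR is the receptor tyrosine kinase for EGF. RAB3B is a small GTPase of regulated exocytosis, DYSF (dysferlin) takes part in resealing of the plasma membrane, NTM (neurotrimin) is a GPI-anchored adhesion protein of the IgLON family, and KRT7 is a keratin of simple epithelia. B3GALT2 and ST6GALNAC5 are Golgi enzymes that add galactose and sialic acid to glycans, SRSF12 is a protein of the SR family of splicing factors, and BAHCC1 is a chromatin protein with a BAH domain. COL1A1 encodes a chain of type I collagen, the main fibrillar collagen of fibroblasts and other mesenchymal cells, and is not a gene that defines microglia.

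Libraries held between 24153233 and 28406943 estimated counts (median 27456867.5). Levels are given as CPM, which scales counts by the library total after TMM normalization. LACTB itself was at 70.9 to 98.1 CPM in the WT libraries and at 7.51 to 9.78 CPM in clones A and C, but at 44.3 and 51.7 CPM in the libraries of clone B, so that the transcript was lower than in every WT library but far less so in that clone. Of 25 listed microglial markers, 24 were in the table and all 24 were above the floor of 3 counts in at least 1 library. CSF1R, the receptor for MCSF, was at 1372 to 2046 CPM in WT against 1667 to 1948 CPM in LACTB KO, whereas the microglial transcription factor SALL1 was low, at 0.376 to 0.879 CPM in WT against 0.253 to 0.720 CPM in LACTB KO.

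COL1A1 differed more between the differentiations of WT clones J and K than between the means of the genotypes. Its CPM was 3644 in J1, 240 in J2, 7.42 in K1, 2367 in K2, 208 in L1 and 19.3 in L2, against 49.4 in A1, 17.0 in A2, 48.5 in B1, 446 in B2, 10.7 in C1 and 7.17 in C2. J1 and K2 were thus the libraries richest in collagen transcripts, K1 and L2 were the poorest of WT, and B2 stood highest among LACTB KO. A list of 30 fibroblast and mesenchymal markers without collagens, of which TWIST2 and TCF21 did not exceed the floor in any library, summed to 230 to 7938 CPM in WT (median 966) and to 244 to 1687 CPM in LACTB KO (median 316). Among its defining genes, LUM ranged from 0.0721 to 93.5 CPM in WT and from 0 to 4.70 CPM in LACTB KO, and DCN from 0 to 84.1 CPM and from 0 to 0.506 CPM. In these bulk libraries, fewer cells of a type and less RNA per cell cannot be told apart.

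Sequences upstream of the transcription start were examined because the levels of several of the genes move together across libraries. RefSeq promoter windows (GRCh38.p14) were found for 9 of the 10 genes, and KRT7 had no entry. The 250 bases before the start are shown, 5′ to 3′ on the gene's strand, for RAB3B (chr1:51990701-51990950, minus strand), JAG1 (chr20:10674000-10674249, minus strand) and ST6GALNAC5 (chr1:76867230-76867479, plus strand), which rose with COL1A1 within clones, and for SRSF12 (chr6:89118072-89118321, minus strand), whose libraries did not overlap between genotypes. Capitals mark matches, on either strand, to 5 motifs. The TATA box was searched as TATAAA. The GC box of SP and KLF factors was searched as GGGCGG. The site of AP-1, the dimer of FOS and JUN proteins, was searched as TGANTCA. The site of TEAD factors was searched as GGAATG. An E-box of basic helix-loop-helix factors was searched as CAGCTG.
RAB3B: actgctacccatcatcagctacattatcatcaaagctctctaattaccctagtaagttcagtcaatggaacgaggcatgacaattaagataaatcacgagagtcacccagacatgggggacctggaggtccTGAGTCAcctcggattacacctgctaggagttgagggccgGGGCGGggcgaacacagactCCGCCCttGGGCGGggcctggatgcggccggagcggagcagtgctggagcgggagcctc
JAG1: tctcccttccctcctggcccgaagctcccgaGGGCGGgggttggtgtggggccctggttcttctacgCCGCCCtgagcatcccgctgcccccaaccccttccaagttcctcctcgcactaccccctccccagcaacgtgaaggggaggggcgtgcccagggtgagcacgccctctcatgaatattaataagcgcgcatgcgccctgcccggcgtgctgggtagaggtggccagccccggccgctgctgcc
ST6GALNAC5: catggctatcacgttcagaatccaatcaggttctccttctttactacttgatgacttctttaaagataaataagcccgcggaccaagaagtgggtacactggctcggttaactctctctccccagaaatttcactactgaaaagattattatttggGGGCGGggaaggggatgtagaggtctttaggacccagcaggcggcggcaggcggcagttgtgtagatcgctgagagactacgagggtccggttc
SRSF12: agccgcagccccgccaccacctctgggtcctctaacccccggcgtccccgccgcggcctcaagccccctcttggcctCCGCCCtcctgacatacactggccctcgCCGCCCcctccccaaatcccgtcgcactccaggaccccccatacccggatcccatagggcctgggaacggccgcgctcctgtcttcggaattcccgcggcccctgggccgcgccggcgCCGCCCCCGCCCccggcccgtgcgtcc
The GC box was the motif most often matched. It was present in 6 of the 9 windows (RAB3B, DYSF, EGFR, JAG1, ST6GALNAC5 and SRSF12), against 42.6% of 35116 promoter windows of the same length. TGANTCA was found in 1 window, that of RAB3B (6.57% of all windows), and CAGCTG in 1, that of DYSF (14.0%). Neither TATAAA (10.7%) nor GGAATG (11.9%) was found in any of the 9. GC content ran from 33.6% in B3GALT2 to 75.6% in SRSF12, around a median of 58.0% over all windows. The 4 windows shown thus shared GC boxes and none of the other motifs, except the match to TGANTCA in RAB3B, and a match is a description of letters only.

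RAB3B (chr1:51907956-51990700, minus strand) moved the same way as COL1A1 between the differentiations of the 3 WT clones and of clone B. In WT its CPM was 7.22 in J1, 1.30 in J2, 0.577 in K1, 9.23 in K2, 5.66 in L1 and 0.721 in L2, and in LACTB KO it was 0.663 in A1, 0.590 in A2, 0.398 in B1, 1.38 in B2, 0.432 in C1 and 0.336 in C2. J1, K2 and L1 lay above every LACTB KO library, while J2, K1 and L2 lay among them. Levels of RAB3B did not follow the order of COL1A1 across clones. L1, with COL1A1 at 208 CPM, was above J2 (240 CPM) and B2 (446 CPM). The mean was 4.12 ± 3.75 CPM in WT (SD, n = 6 libraries from 3 clones, as for all means below) and 0.633 ± 0.385 CPM in LACTB KO, and the difference on clone sums was -2.70 ± 0.34 (SE) on the log2 scale.

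JAG1 (chr20:10637684-10673999, minus strand), the ligand of Notch receptors, was the most abundant of the genes and had the smallest difference. Its WT libraries were at 20.1 (J1), 10.1 (J2), 10.3 (K1), 27.8 (K2), 22.6 (L1) and 7.97 CPM (L2), and its LACTB KO libraries at 8.57 (A1), 7.67 (A2), 8.86 (B1), 10.8 (B2), 11.1 (C1) and 8.30 CPM (C2). Again J1, K2 and L1 were high, and the other 3 WT libraries fell within the range of LACTB KO. The means of 16.5 ± 8.11 and 9.22 ± 1.40 CPM gave a difference of -0.85 ± 0.14 on the log2 scale. Per kilobase of exon, mean JAG1 was at 1.77 CPM in WT against 0.991 CPM in LACTB KO, against at most 0.495 CPM (KRT7) and 0.0704 CPM (KRT7) in any other of the genes. SRSF12 was lowest in WT by that scale, at 0.0696 CPM per kilobase.

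EGFR (chr7:55019017-55211628, plus strand) was highest in J2, whereas COL1A1 and, among the genes examined, only B3GALT2, ST6GALNAC5 and SRSF12 were highest in J1. Its CPM was 4.55 in J1, 7.86 in J2, 1.66 in K1, 5.07 in K2, 4.04 in L1 and 1.71 in L2, and 1.20 in A1, 0.443 in A2, 0.470 in B1, 1.73 in B2, 0.900 in C1 and 0.859 in C2. The lowest WT library and the highest LACTB KO library thus differed by less than 0.1 CPM, and 5 of 6 LACTB KO libraries were below all of WT. The means were 4.15 ± 2.32 and 0.934 ± 0.483 CPM, a difference of -2.16 ± 0.34 on the log2 scale. EGFR-AS1, which overlaps it on the other strand, had at most 5 counts in a library.

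DYSF (chr2:71453561-71686763, plus strand), the gene of membrane resealing, was at 1.62 (J1), 2.52 (J2), 0.360 (K1), 5.18 (K2), 4.32 (L1) and 0.531 CPM (L2) in WT. In LACTB KO it was at 0.497 (A1), 0.0369 (A2), 0.506 (B1), 0.741 (B2), 0.504 (C1) and 0.336 CPM (C2), the value of A2 being 1 count. K1 and L2 sat inside the LACTB KO range, and the difference was -2.49 ± 0.35 on the log2 scale. KRT7 (chr12:52232520-52252186, plus strand), the simple epithelial keratin, was at 0.902 (J1), 1.67 (J2), 0 (K1), 2.50 (K2), 6.61 (L1) and 0.190 CPM (L2) in WT and at 0.580 (A1), 0.0369 (A2), 0.181 (B1), 0.530 (B2), 0.324 (C1) and 0.0374 CPM (C2) in LACTB KO. K1 held no KRT7 count and was below every LACTB KO library, and the 6 WT values had an SD of 2.45 around a mean of 1.98 CPM. Its difference between clone sums was -2.85 ± 0.52 on the log2 scale. In clone J both genes, like EGFR, were higher in J2 than in J1, the reverse of COL1A1.

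NTM (chr11:131370478-132336822, plus strand), the adhesion protein, was at 0.865 (J1), 0.593 (J2), 0.108 (K1), 1.41 (K2), 2.50 (L1) and 0.455 CPM (L2) in WT against 0.207 (A1), 0.148 (A2), 0.0723 (B1), 0.353 (B2), 0.0720 (C1) and 0.187 CPM (C2) in LACTB KO. Only K1, with 3 counts, fell within the LACTB KO range, and the difference was -2.51 ± 0.41 on the log2 scale. BAHCC1 (chr17:81395457-81466331, plus strand), the BAH domain protein, was at 1.35 (J1), 0.408 (J2), 0.649 (K1), 2.11 (K2), 1.23 (L1) and 0.379 CPM (L2) against 0.249 (A1), 0.184 (A2), 0.145 (B1), 0.494 (B2), 0.324 (C1) and 0.262 CPM (C2). Here B2 alone reached into the WT range, above J2 and L2, and the difference was -1.88 ± 0.33 on the log2 scale.

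The 3 remaining genes were near the floor in LACTB KO, where a library held 4 counts or fewer. B3GALT2 (chr1:193178730-193186613, minus strand), the galactosyltransferase, was at 2.22 (J1), 0.482 (J2), 0.108 (K1), 0.669 (K2), 1.65 (L1) and 0.0759 CPM (L2) in WT, and at 0.0374 to 0.148 CPM in LACTB KO (median 0.0902). The summed counts were 143 in WT and 15 in LACTB KO, a depth-scaled ratio of 9.37 with a 95% exact counting interval of 5.50 to 17.2. It lies within CDC73, which is transcribed from the other strand and stood at 60.8 to 82.4 CPM in WT against 70.2 to 81.7 CPM in LACTB KO, so the level of B3GALT2 is uncertain where the counting did not use strand.

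ST6GALNAC5 (chr1:76867480-77067546, plus strand), the sialyltransferase, had the largest difference on clone sums, -4.35 ± 0.79 on the log2 scale, a value that rests on 9 counts in LACTB KO. WT libraries were at 4.21 (J1), 0.482 (J2), 0.0721 (K1), 0.916 (K2), 1.27 (L1) and 0.0759 CPM (L2), and LACTB KO libraries at 0 to 0.106 CPM, which is 0 to 3 counts. K1 and L2, with 2 counts each, were not above LACTB KO. The sums of 191 and 9 counts gave a ratio of 20.9 (95% exact counting interval 10.8 to 46.3). These intervals, and that of SRSF12 below, cover counting error only and not the spread between clones. The genes were chosen by this difference, so nothing is read from where the intervals lie.

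SRSF12 (chr6:89095959-89118071, minus strand), the SR family gene, was low everywhere yet was the single gene of the 10 whose libraries did not overlap between genotypes. Its WT values were 0.564 (J1), 0.185 (J2), 0.252 (K1), 0.317 (K2), 0.387 (L1) and 0.190 CPM (L2), and those of LACTB KO were 0 (A1), 0.0738 (A2), 0.0362 (B1), 0.0353 (B2), 0.0720 (C1) and 0.0747 CPM (C2). That is 5 to 15 counts in a WT library and 0 to 2 in a LACTB KO library, with a ratio of the sums of 6.39 (95% exact counting interval 3.02 to 15.6). All 6 LACTB KO libraries were below all 6 WT libraries in 1 of the 10 genes and in 0.188% of all genes tested, and the same libraries chose the genes. After each clone's libraries were summed, the 3 LACTB KO clones were below the 3 WT clones in all 10 genes and in 6.37% of all genes, and since these values chose the genes nothing is read from either count.

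**Figure D1:**
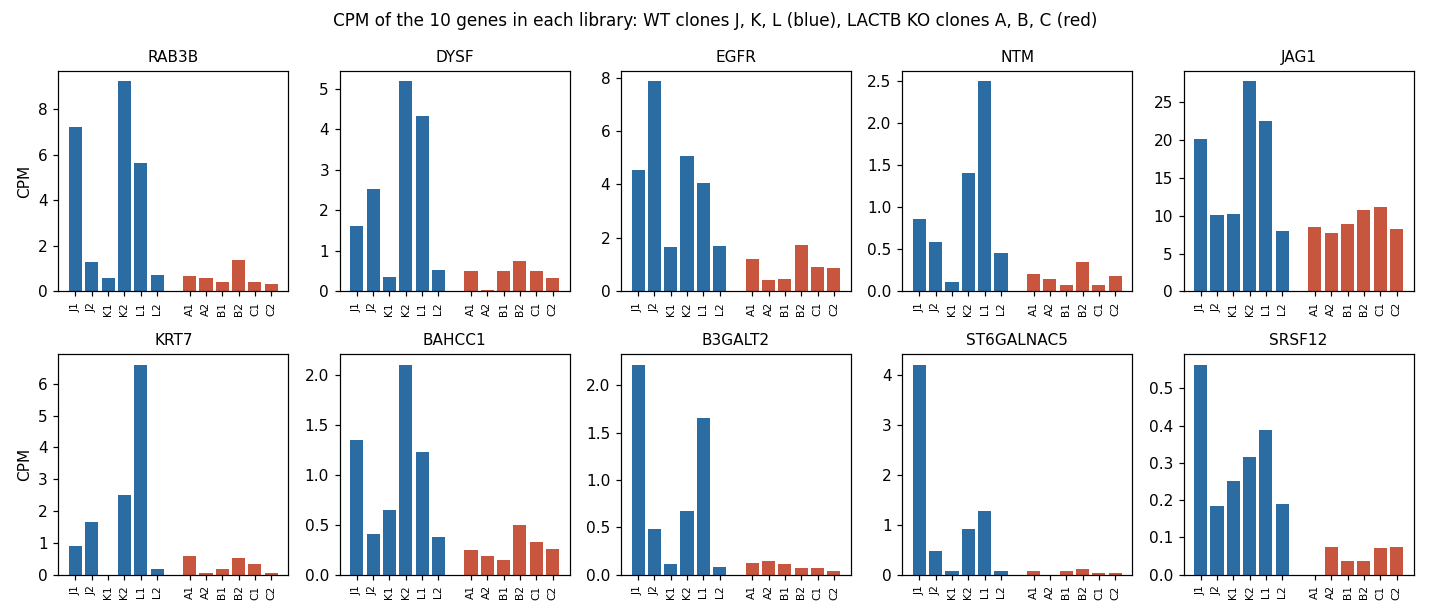
CPM of each of the 10 genes (vertical axis, from 0, with its own scale per gene) in the 6 WT libraries (blue) and the 6 LACTB KO libraries (red), 1 bar per library. For most genes J1, K2 and L1 are high and K1 and L2 are near the LACTB KO libraries, and in SRSF12 every WT bar is above every LACTB KO bar.

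The order of p among the 8488 genes with a lower fitted level in LACTB KO places the 10 genes at positions 2, 3, 4, 6, 7, 8, 10, 11, 12 and 13. An unadjusted p under 0.05 with a lower level in LACTB KO was reached by all 10 through the rule and by 5.56% of genes tested (977 lower, with 141 higher). No gene reached an adjusted p under 0.05 in edgeR's quasi-likelihood test, whereas DESeq2 called 167 lower and 4 higher. ITGA3, an integrin chain, came first in the order with -1.70 ± 0.18 on the log2 scale and was not among the 10. Just inside the list was KRT7, and just outside were LIFR (-1.75 ± 0.32; on average 0.978 CPM in WT against 0.294 CPM in LACTB KO) and LAMA5 (-1.10 ± 0.20; 10.3 and 4.83 CPM). Passed over between them were ENSG00000275993 (-0.93 ± 0.15) and MFSD14CP, which was at 0 in every LACTB KO library and at 0 to 0.901 CPM in WT.

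From differentiation 1 to 2, the CPM of all 10 genes rose in WT clone K and fell in WT clone L. For SRSF12 the rise in K rests on 7 and 9 counts, and no direction is read from it. In 6 of the 10 genes the largest log2 change between the differentiations of a WT clone exceeded the size of the genotype difference, as it did in 94.9% of all genes tested, and since the 10 were chosen by the genotype difference nothing is read from that count. For KRT7, the change from differentiation 1 to 2 was 5.13 in clone K and -4.67 in clone L on the log2 scale, and for RAB3B it was 3.84 and -2.85. In the test of differentiation 2 against 1, 0 of 10 genes had an adjusted p under 0.05 (edgeR, clone as fixed effect), and 0 had an unadjusted p under 0.05 against 9.03% of all genes. The interaction of genotype and differentiation gave 0 of 10 at an adjusted and 0 at an unadjusted p under 0.05, against 0.996% of all genes at the latter. No gene of the 17577 had an adjusted p under 0.05 in either of these edgeR tests, so nothing is read from the adjusted counts of 0. DESeq2 called 0 of 10 for differentiation against 1.66% of all genes, and for the interaction it called no gene at all.

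The direction of these changes was set beside that of COL1A1, whose log2 CPM changed by -3.92 in clone J, 8.30 in K, -3.42 in L, -1.53 in A, 3.20 in B and -0.58 in C. The CPM of RAB3B, JAG1 and BAHCC1 moved the same way as COL1A1 in 6 of 6 clones, as did 3.54% of all genes tested, although in clone A the counts of each differed by at most 1 between differentiations, so that no direction is read there. DYSF, EGFR and KRT7 followed in every clone except J, and NTM in every clone except C, where it had 2 and 5 counts. In clone C the 2 libraries held 12 and 9 counts of RAB3B, 25 and 23 of EGFR and 9 and 7 of BAHCC1. NTM had 5 and 4 counts in clone A. No direction is read from these pairs. B3GALT2, ST6GALNAC5 and SRSF12 followed in the 3 WT clones. SRSF12 had only 7 and 9 counts in clone K, and no direction is read from that pair. In LACTB KO these 3 genes had 0 to 4 counts in a library, with equal counts in both libraries of C for ST6GALNAC5 and of B and C for SRSF12, and no direction is read from them. Within WT, 7 of the 10 genes followed COL1A1 in 3 of 3 clones, against 19.6% of all genes. Both values count every change in CPM, however few the counts, and the 7 include SRSF12, whose direction in clone K is not read.

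Slopes within the 6 WT libraries put a size on this relation. A slope is the change in log2 units of a gene per log2 unit of COL1A1, fitted with edgeR across all genes. All 10 slopes were above 0, as were 50.5% of all genes, with a median of 0.30 against 0.00 over all genes tested. They were largest in ST6GALNAC5 (0.58 ± 0.12 SE; adjusted p = 0.0857) and RAB3B (0.45 ± 0.09; adjusted p = 0.0917), followed by KRT7 (0.43 ± 0.35), B3GALT2 (0.43 ± 0.15), DYSF (0.36 ± 0.14), NTM (0.25 ± 0.16), BAHCC1 (0.20 ± 0.08), EGFR (0.19 ± 0.08), JAG1 (0.16 ± 0.05) and SRSF12 (0.12 ± 0.07). None passed an adjusted p of 0.05, which 1.43% of all genes did with a rising slope, and the adjusted p of the other 8 ran from 0.287 to 0.731. At an unadjusted p under 0.05, 6 of 10 rose (RAB3B, DYSF, JAG1, BAHCC1, B3GALT2 and ST6GALNAC5), against 6.67% of all genes. DESeq2 called 5 of 10 on the adjusted scale, namely RAB3B, DYSF, JAG1, B3GALT2 and ST6GALNAC5, against 3.44% of all genes. The 6 libraries come from 3 clones, and this fit takes them as independent.

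Within clones, where all 12 libraries enter and only the difference between the differentiations of a clone counts, 3 of 10 genes rose with COL1A1 at an adjusted p under 0.05, against 2.42% of all genes. RAB3B rose by 0.55 ± 0.06 per log2 unit of COL1A1 (edgeR, adjusted p = 0.00159), ST6GALNAC5 by 0.62 ± 0.12 (adjusted p = 0.0344) and JAG1 by 0.20 ± 0.04 (adjusted p = 0.0231). The slopes of NTM (0.43 ± 0.09; adjusted p = 0.0526) and BAHCC1 (0.29 ± 0.07; adjusted p = 0.0698) were near that threshold. KRT7 had the steepest slope but also the widest error, 0.70 ± 0.24 (adjusted p = 0.237), and DYSF (0.41 ± 0.13), B3GALT2 (0.44 ± 0.13) and EGFR (0.20 ± 0.08) had adjusted p from 0.175 to 0.357. SRSF12 was the flattest at 0.11 ± 0.11 (adjusted p = 0.69). At an unadjusted p under 0.05, 9 of 10 rose, all except SRSF12, against 8.17% of all genes, and the median slope was 0.42 against 0.00 over all genes. At an adjusted p under 0.05, 6 of 10 rose without the expression filter, against 1.73% of all genes then tested, and 6 of 10 by DESeq2, against 3.42%. COL1A1 was itself lower on average in LACTB KO, so choosing genes by that contrast can favour those that rise with it. The shares over all genes, here and within WT, do not allow for that choice.

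The calls of JAG1 and ST6GALNAC5 were lost when some clones were left out, whereas RAB3B was called whichever clone was left out. JAG1 lost its call without clone J (slope 0.20; adjusted p = 0.0699) or K (0.26; adjusted p = 0.173), against a slope of 0.20 with all clones. ST6GALNAC5, at 0.62 with all clones, lost its call without J (0.54; adjusted p = 0.152), K (0.82; adjusted p = 0.114), L (0.54; adjusted p = 0.0682) or C (0.62; adjusted p = 0.0659). Without J, NTM (adjusted p = 0.0361) and KRT7 (adjusted p = 0.0175) were called in their place. With the mean of 25 stromal markers instead of COL1A1, 4 of 10 genes rose, the fourth being NTM (adjusted p = 0.0346), against 2.20% of all genes. Fitted on the 6 LACTB KO libraries alone, the slope was 0.30 ± 0.09 for RAB3B, 0.04 ± 0.05 for JAG1, 0.31 ± 0.22 for ST6GALNAC5 and -0.26 ± 0.26 for SRSF12. No gene of the 10 was called there, against 104 of 17576 genes. The slope of SRSF12 rests on 0 to 2 counts per library, and no direction is read from it. Whether slopes differed between genotypes was not tested.

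**Figure D2:**
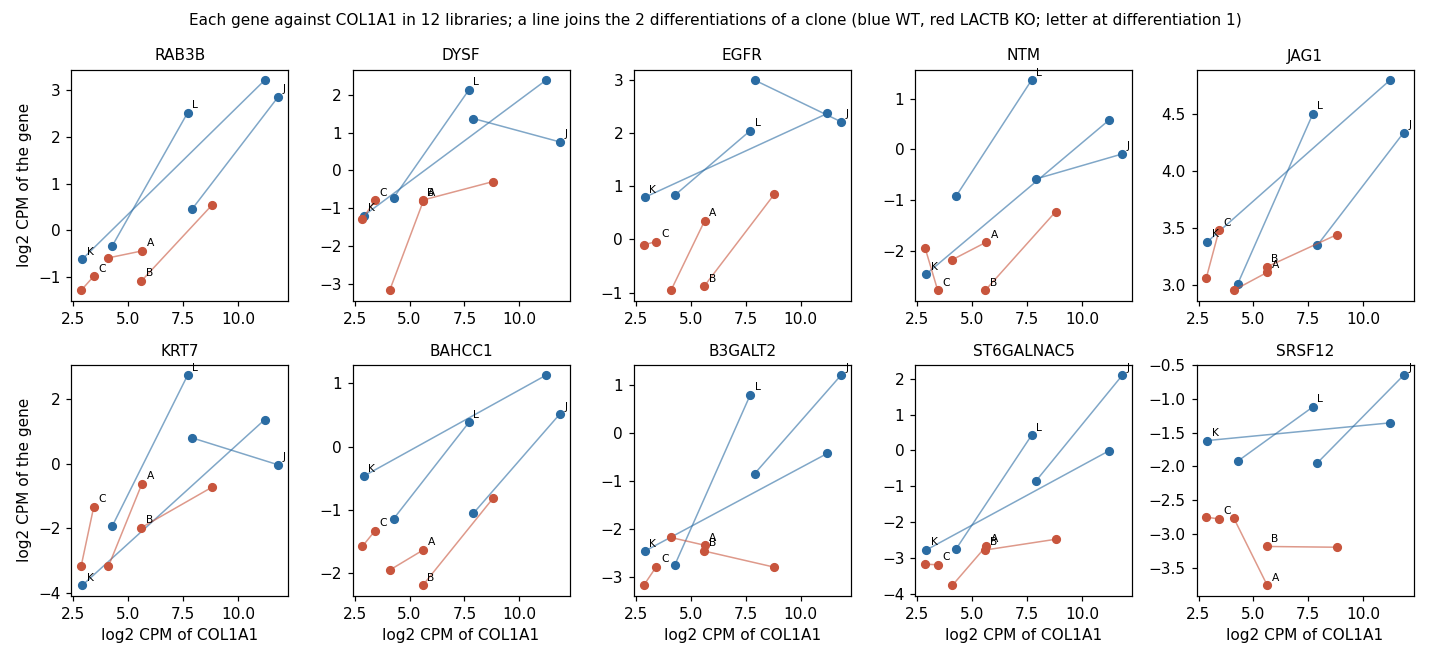
Log2 CPM of each gene (vertical) against log2 CPM of COL1A1 (horizontal) in 12 libraries, with a line joining the 2 differentiations of a clone (WT blue, LACTB KO red, letter at differentiation 1). Lines slope upward in all 6 clones for RAB3B, JAG1 and BAHCC1. In clone A these lines rest on nearly equal counts, and in clone C those of RAB3B and BAHCC1 rest on few. No direction is read from them. The line of clone J slopes downward for DYSF, EGFR and KRT7, and for SRSF12 the WT points lie above all LACTB KO points at any level of COL1A1.

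**Figure D3:**
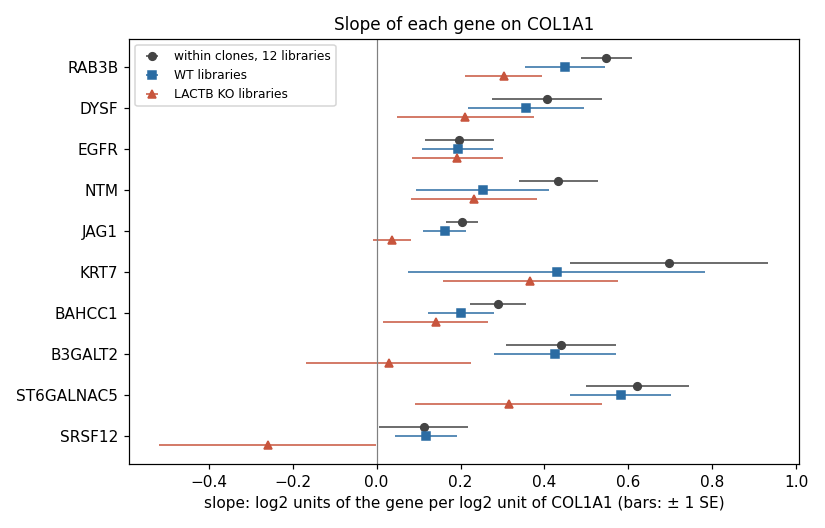
Slope of each gene on COL1A1 in log2 units per log2 unit (horizontal), with bars of 1 SE, within clones over 12 libraries (grey circles), over the 6 WT libraries (blue squares) and over the 6 LACTB KO libraries (red triangles). Slopes within clones run from 0.11 in SRSF12 to 0.70 in KRT7, and the one negative value is SRSF12 in LACTB KO at -0.26 ± 0.26, from 0 to 2 counts per library.

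When log2 COL1A1 entered the genotype comparison over the 12 libraries as a covariate, every one of the 10 differences was smaller in size than in the same 12 libraries without it. The share of all genes with a smaller difference was not computed, so nothing is read from that count. RAB3B went from -2.69 ± 0.70 to -1.22 ± 0.42, ST6GALNAC5 from -4.28 ± 0.99 to -2.31 ± 0.69 and JAG1 from -0.84 ± 0.28 to -0.41 ± 0.24 on the log2 scale. Both fits take the libraries of a clone as independent, and the one without COL1A1 was added after the data were seen. With the covariate B3GALT2 was at -1.87 ± 0.73, KRT7 at -1.75 ± 1.08, DYSF at -1.46 ± 0.62 and BAHCC1 at -1.28 ± 0.41. EGFR went from -2.15 to -1.61 ± 0.38 and NTM from -2.48 to -1.80 ± 0.62. SRSF12 moved least, from -2.57 to -2.33 ± 0.54. The median of the 10 moved from -2.53 to -1.68. The median over all genes was 0.00 in both, but it is signed and cannot show a change in size. These values describe the contrast that chose the genes. COL1A1 itself differed by -3.48 ± 1.41 on the log2 scale (adjusted p = 0.761, edgeR), and its part in the differences was not tested. On clone sums without clone B, in which LACTB was least reduced, the differences ran from -0.89 (JAG1) to -4.87 (ST6GALNAC5). B3GALT2 (-3.17, from -3.20 with all clones) and SRSF12 (-2.43, from -2.62) were then smaller in size, and the others larger. Leaving out WT clone K instead gave -4.71 for ST6GALNAC5. A relation to the level of LACTB was not tested.

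**Figure D4:**
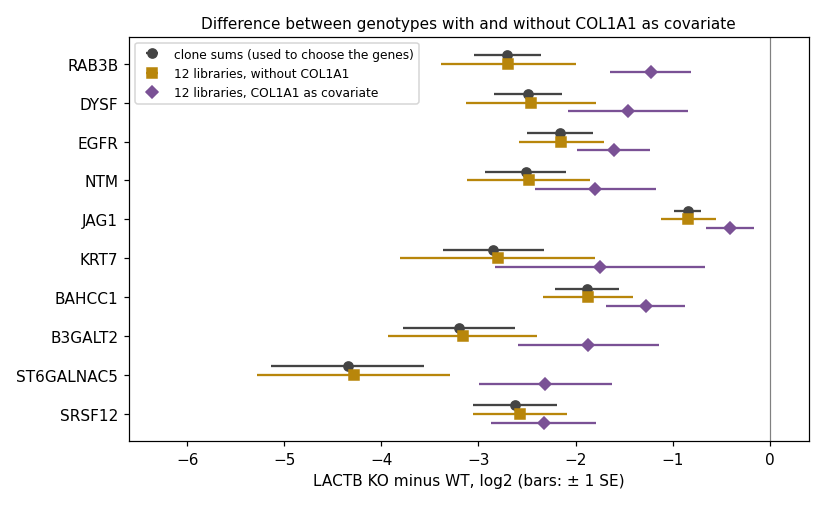
LACTB KO minus WT in log2 units (horizontal), with bars of 1 SE, for each gene on clone sums (grey circles, the contrast used to choose the genes), over 12 libraries without COL1A1 (gold squares) and over 12 libraries with COL1A1 as a covariate (purple diamonds). The values with the covariate are nearer to 0 for all 10 genes, a count whose share over all genes was not computed. SRSF12 moved least, to -2.33 from -2.57 in the same libraries.

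Likeness between genes was measured as Pearson's r of log2 CPM over the 12 libraries with both genotypes centred on their own mean, a description of libraries that share clones, differentiations and, in part, their collagen content. Over the 45 pairs of the 10 genes r had a median of 0.665 and was above 0 in 44 pairs. The same values over pairs of other genes were not computed, so nothing is read from this count. The closest pairs were JAG1 with BAHCC1 (0.921) and B3GALT2 with ST6GALNAC5 (0.913), and the loosest was EGFR with SRSF12 (-0.0276). With COL1A1, r was 0.889 for RAB3B and 0.847 for ST6GALNAC5, lay between 0.664 and 0.715 for 7 others and was 0.266 for SRSF12.

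Outside the 10, the genes most like their mean profile were TPM2, a tropomyosin (r = 0.956), ITGA3 (0.951), CAV1, a coat protein of caveolae (0.946), SHROOM3, an actin-binding protein (0.942) and EGF, a ligand of EGFR (0.941). EGF was low, with at most 14 counts in a library and 0.0369 to 0.108 CPM in LACTB KO. Gene by gene, the nearest were NEXN, an actin-binding protein, for RAB3B (0.976), PCBP4 for BAHCC1 (0.972), EGF for JAG1 (0.959), SLC4A4, a bicarbonate cotransporter, for NTM (0.950) and the neurotrophin receptor NTRK3 for both DYSF (0.937) and KRT7 (0.910). For EGFR, B3GALT2, ST6GALNAC5 and SRSF12 the nearest were genes without a symbol, ENSG00000287763 (0.914), ENSG00000285886 (0.919), ENSG00000255182 (0.975) and ENSG00000267769 (0.932).

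Genes of the same families and pathways were counted in 9 lists. No gene of these lists reached an adjusted p under 0.05 between genotypes in edgeR, and the counts that follow use an unadjusted p under 0.05, which 5.56% of all genes passed as lower. Of 24 tested Notch genes, 2 were lower and 0 higher, with a median of 0.01 on the log2 scale. These were the receptor NOTCH2 (-0.33 ± 0.12; adjusted p = 0.754) and the ligand DLL1 (-1.95 ± 0.80; adjusted p = 0.765). Among 21 tested ERBB genes 3 were lower and 0 higher (median -0.06), led by EGF (-1.87 ± 0.42; 0.252 ± 0.196 CPM in WT against 0.0670 ± 0.0337 CPM in LACTB KO) and the receptor ERBB2 (-0.58 ± 0.17; 6.03 ± 2.27 and 4.03 ± 0.49 CPM).

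Of 21 genes around RAB3, 2 were lower and 1 higher (median -0.02). The higher one was RAB3D, a paralog of RAB3B, with means of 1.05 ± 0.46 CPM in WT against of 1.96 ± 0.44 CPM in LACTB KO (0.90 ± 0.21 on the log2 scale; adjusted p = 0.726), and RIMS1, a scaffold of secretory vesicle release, had -1.82 ± 0.57. The 23 tested genes of ferlins and membrane repair had 8 lower and 0 higher (median -0.21), with CAPN2, a calpain, at -2.12 ± 0.57 and CAVIN1, a caveolar coat protein, at -2.50 ± 0.70, while MYOF, another ferlin, averaged 217 ± 48.8 CPM in WT against 220.4 ± 36.4 CPM in LACTB KO. Within clones, 7 of these 23 rose with COL1A1 at an adjusted p under 0.05, CAVIN1 among them (0.72 ± 0.06; adjusted p = 0.00034).

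The 9 tested genes of IgLON and related adhesion proteins had 2 lower and 0 higher and a median of -1.67, namely NEGR1 (-1.50 ± 0.43) and THY1 (-3.44 ± 1.36), the latter also standing in the mesenchymal list. NEGR1 (adjusted p = 0.0424) and THY1 (adjusted p = 4.7e-05) both rose with COL1A1 within clones. Of 13 keratins and partners 1 was lower, JUP, a plakoglobin (-0.37 ± 0.15), with DSP, desmoplakin, next (-1.27 ± 0.55), and 6 further keratins of that list did not exceed 3 counts in any library. The lists around BAHCC1 (10 tested), B3GALT2 and ST6GALNAC5 (18 tested) and SRSF12 (20 tested) had 0 lower and 0 higher, with medians of 0.07, 0.01 and 0.11. Their genes with the smallest p were ORC1 (0.34 ± 0.23) and MTA1 (0.10 ± 0.07), ST6GAL2 (-2.60 ± 1.18) and ST3GAL4 (0.41 ± 0.26), and SRSF3 (0.21 ± 0.10) and SRSF9 (0.16 ± 0.08).

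Markers of other cell types were set beside the 10 genes. Of 25 tested mesenchymal markers, 14 were lower and 0 higher at an unadjusted p under 0.05 (median -2.52), and 18 rose with COL1A1 within clones at an adjusted p under 0.05. Epithelial markers, which include partners of KRT7, had 0 of 11 lower, 0 higher and 0 rising with COL1A1, and summed to 79.9 to 286 CPM in WT against 87.5 to 181 CPM in LACTB KO, with CLDN3, ESRP1, GRHL2 and OVOL1 never above the floor. For neural markers 3 of 11 were lower and 0 higher and the sums were 18.5 to 45.5 and 16.3 to 30.2 CPM. Endothelial markers had 1 of 7 lower and 1 higher and sums of 343 to 418 and 344 to 452 CPM, with CDH5 and SOX17 never above the floor, and pluripotency markers had 1 of 4 lower and 1 higher and sums of 14.3 to 31.3 and 13.3 to 21.1 CPM. The microglial list had 2 of 24 lower and 0 higher, and summed to 10808 to 13571 CPM in WT against 10771 to 11704 CPM in LACTB KO. The part of these cell types in the levels of the 10 genes was not tested.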

How the data were processed

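Bulk RNA-seq of 12 iMGL libraries was analysed. The authors trimmed adapters, aligned paired reads from TruSeq v2 libraries to hg38 with STAR, and the estimated counts they deposited for each gene are not normalized. The counting tool and its strand setting are not given in the sources used here. Columns named for scrambled controls were assigned to WT by the sample labels. Between 10.8% and 11.5% of the values in each library were fractions and were rounded. The study's methods use a mixed model (DREAM), which was not used here. Genes were filtered with filterByExpr on clone sums and fitted with edgeR 4.0.16 in R 4.3.3 (TMM, quasi-likelihood test, Benjamini-Hochberg adjustment over all genes, threshold 0.05). Genotype was compared on sums per clone, differentiation, interaction and the slope within clones on 12 libraries with clone as a fixed effect, and the slope within WT on 6. A prior count of 2 was added for log2 CPM but was not set for the fitted differences and slopes, and 3 counts in a library were taken as the floor. The fits were also run on simulated counts drawn without differences between clones. That check does not cover the spread between clones, and nothing is read from it.

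The genes and all lists were chosen with earlier results of these data known. Also named were up to 2 genes per family list with the smallest p between genotypes, the neighbours of the 10 in the order of p and the genes most like them. MYOF, LUM, DCN, CSF1R, SALL1, CDC73 and EGFR-AS1 were named after their values were seen. Coordinates are from GENCODE version 44 on GRCh38, in which 62639 of 62703 identifiers were found. Libraries of the same differentiation and different genotype had a mean r of 0.0323 between their deviations over 18 pairs (-0.0313 for different differentiations). The labels name the differentiation as a batch, so a replicate block was tried. Other alternatives were DESeq2 1.42.0 and its size factors, no filter, limma 3.58.1 voom, each differentiation alone, other covariates, and leaving out clones or libraries.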

Additional observations from a re-analysis of the deposited data

Results flagged for a closer look

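Each gene was examined for 1 library far from the other 5 of its genotype, in 20 groups, of which chance would mark about 1 in 20 and 2 were marked. RAB3B was at 1.38 CPM in LACTB KO library B2, with the next library at 0.663 CPM, a gap of 0.686 of the group's range. B2 also had the highest COL1A1 of LACTB KO (446 CPM). ST6GALNAC5 was at 4.21 CPM in WT library J1, with the next at 1.27 CPM, a gap of 0.712 of the range. J1 had the highest COL1A1 of all libraries (3644 CPM). Without J1 the slope of ST6GALNAC5 on COL1A1 within WT was 0.49 (edgeR, adjusted p = 0.648), against 0.58 with it. The cause of either value was not tested.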

How the results depend on the processing

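Genes lower in LACTB KO at an adjusted p under 0.05 numbered 0, but 2 without the filter, 167 by DESeq2 and 0 to 1 when a clone was left out. At an unadjusted p they numbered 977, against 1711 without the filter, 504 in voom with a replicate block and clone as random effect, 604 in differentiation 1 alone, 455 in differentiation 2 alone, 360 with COL1A1 as covariate and 455 to 1621 when a clone was left out (1621 without WT clone L, 455 without LACTB KO clone A and 566 without C). The edgeR fit of 12 libraries with a replicate block gave 0 adjusted and 1098 unadjusted, and a fit of 12 libraries with genotype alone, added after the data were seen, gave 0 and 1203. Genes changed between differentiations numbered 0 (80 without the filter, 291 by DESeq2, 0 to 42 with a clone left out), and 1587 at an unadjusted p (1026 to 1890 with a clone left out). The interaction gave 175 at an unadjusted p and 385 without the filter. Genes rising with COL1A1 within WT numbered 252, against 605 by DESeq2, 166 with COL3A1, 104 in LACTB KO libraries and 73 to 299 when a library was left out (122 without J1, 73 without K1 and 74 without L2). Within clones they numbered 426, and 146 to 419 when a clone was left out (146 without K).

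Of the 10 genes, those called within WT went from 0 to 5 by DESeq2 (605 of 17576 genes). They were 1 with clone as fixed effect (193 of 17576) and 1 with stromal markers (238 of 17551). With a library left out they were 0 to 1 (73 to 299 of 17576). The 1 was RAB3B in each case. Within clones they went from 3 to 6 without the filter (638 of 36978 genes) and 6 by DESeq2 (601 of 17576). With a clone left out they were 1 to 3 (146 to 419 of 17576). The replicate block left the members called at 0 within WT (172 of 17576 genes) and 3 within clones (455 of 17576). The slope of SRSF12 was -0.26 ± 0.26 (SE) in LACTB KO libraries, which held 0 to 2 counts each, against 0.12 in WT, and no direction is read from it. The cause of these shifts was not tested. Low depth limits SRSF12, B3GALT2 and ST6GALNAC5, which had 4 counts or fewer in every LACTB KO library, and 3 clones per genotype limit all comparisons.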
